A study of Homo sapiens with 2 samples.

Results

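The genes described here are 9 genes of the HLA class I antigen presentation pathway, matched by symbol to 1 Ensembl ID each among the 60683 genes of the count table. They are HLA-B, HLA-C, HLA-E, HLA-F, B2M, TAP1, TAP2, TAPBP and NLRC5, and all 9 were among the 15530 genes whose mean reached 1 CPM (counts scaled to the deposited library size). HLA-B, HLA-C, HLA-E, HLA-F, TAP1, TAP2 and TAPBP lie on chromosome 6, B2M on chromosome 15 and NLRC5 on chromosome 16. RNA was sequenced from HEK293T, a line of human embryonic kidney cells with SV40 large T antigen, in which short hairpin RNAs had stably knocked down FKBP5, an immunophilin that works with HSP90. Both samples, called replicate 1 and replicate 2, belong to this knockdown group. No control cells were analysed here. The values are therefore levels in knockdown cells, and no effect of the knockdown could be tested. Neither the number of hairpins or clones nor whether the samples came from separate cultures is given in the sources used here, so the spread between the samples may be technical.

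HLA class I molecules show peptides from proteins made inside the cell to CD8 T cells and natural killer cells. A polymorphic heavy chain pairs with the invariant light chain beta-2-microglobulin in the endoplasmic reticulum. The TAP transporter brings in peptides that the proteasome has cut, and tapasin holds the empty heavy chain at the transporter until a peptide fits. Transcription of these genes is raised by interferons, by NF-kappaB and by NLRC5, which acts through factors bound at a conserved group of promoter elements, the X1, X2 and Y boxes.

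Replicate 1 held 9997706 counts and replicate 2 held 21284648, of which the 9 genes took 7709 counts (0.0771%) in replicate 1 and 15759 (0.0740%) in replicate 2. FKBP5, the targeted gene, had 41 counts in replicate 1 and 77 in replicate 2. Markers of the HEK293 line were present, with 7 of 8 reaching a mean of 1 CPM and a summed level of 652 CPM in replicate 1 and 625 CPM in replicate 2, while PAX8 had 1 and 10 counts. Of 8 blood cell markers 2 reached that mean, and the list summed to 24.6 CPM in replicate 1 and 25.6 CPM in replicate 2. The pan-leukocyte gene PTPRC had 1 count in replicate 1 and 10 in replicate 2, and the haemoglobin gene HBB 1 and 0. Markers of professional antigen presenting cells summed to 17.6 CPM in replicate 1 and 17.3 CPM in replicate 2, of which the class II gene HLA-DPA1 had most, with 105 counts (10.1 CPM) in replicate 1 and 189 (8.65 CPM) in replicate 2. HLA-DMB of the same list had 23 counts in replicate 1 and 101 in replicate 2, and the costimulatory genes CD80 and CD86 had 1 to 4 counts in each library. Fibroblast markers summed to 62.6 CPM in replicate 1 and 72.6 CPM in replicate 2, most of it COL1A1, while DCN had 1 and 2 counts.

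The promoters are shown because the heavy chain genes, which descend from a common ancestor, share regulatory elements with B2M and because the levels of the genes they head differed widely. The RefSeq table (GRCh38.p14) gave windows of 300 bases, from 250 before to 50 after the start, for 7 of the 9 genes, those other than HLA-E and NLRC5. Those of HLA-C (chr6:31272043-31272342, minus strand), HLA-B (chr6:31357130-31357429, minus strand), HLA-F (chr6:29723184-29723483, plus strand), B2M (chr15:44711267-44711566, plus strand) and TAPBP (chr6:33314029-33314328, minus strand) read 5′ to 3′ on the strand of the gene. Capitals mark matches on either strand to the ISRE core GAAANNGAAA, the kappa-B pattern GGGANTNNCC, the X2 core TGACG, the inverted CCAAT box ATTGG of the Y element, and TATAA.
HLA-C: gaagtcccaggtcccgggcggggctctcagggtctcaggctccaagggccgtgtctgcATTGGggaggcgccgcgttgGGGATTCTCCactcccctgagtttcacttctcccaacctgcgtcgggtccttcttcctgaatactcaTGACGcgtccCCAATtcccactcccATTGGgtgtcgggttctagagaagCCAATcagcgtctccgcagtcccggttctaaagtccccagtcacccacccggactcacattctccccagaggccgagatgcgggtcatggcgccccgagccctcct
HLA-B: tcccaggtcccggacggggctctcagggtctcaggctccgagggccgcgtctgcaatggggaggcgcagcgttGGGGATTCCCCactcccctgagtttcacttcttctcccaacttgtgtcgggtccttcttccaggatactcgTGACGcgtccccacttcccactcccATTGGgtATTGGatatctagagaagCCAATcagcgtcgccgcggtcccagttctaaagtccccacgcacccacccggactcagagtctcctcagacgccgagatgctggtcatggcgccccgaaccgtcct
HLA-F: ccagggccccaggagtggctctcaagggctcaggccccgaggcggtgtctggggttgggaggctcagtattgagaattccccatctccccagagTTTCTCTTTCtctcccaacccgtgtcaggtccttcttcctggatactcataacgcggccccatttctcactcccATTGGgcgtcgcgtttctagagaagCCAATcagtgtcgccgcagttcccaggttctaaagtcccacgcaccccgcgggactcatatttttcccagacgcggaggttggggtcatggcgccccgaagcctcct
B2M: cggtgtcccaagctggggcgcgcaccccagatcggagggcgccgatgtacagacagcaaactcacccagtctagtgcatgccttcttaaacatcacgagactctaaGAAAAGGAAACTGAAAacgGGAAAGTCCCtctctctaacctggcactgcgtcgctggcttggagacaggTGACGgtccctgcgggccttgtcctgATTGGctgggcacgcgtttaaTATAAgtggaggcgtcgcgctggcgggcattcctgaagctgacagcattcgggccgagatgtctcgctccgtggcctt
TAPBP: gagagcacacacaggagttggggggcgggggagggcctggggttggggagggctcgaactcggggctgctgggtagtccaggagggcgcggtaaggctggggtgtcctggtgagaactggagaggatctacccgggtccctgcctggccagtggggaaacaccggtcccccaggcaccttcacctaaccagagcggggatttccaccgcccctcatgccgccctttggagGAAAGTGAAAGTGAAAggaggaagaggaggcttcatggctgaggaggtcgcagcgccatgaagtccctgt

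HLA-B and HLA-C had the most similar promoters, identical in 88.5% of aligned positions, against 79.7% for HLA-B with HLA-F and 78.9% for HLA-C with HLA-F. The X2 core followed by an inverted CCAAT box on the same strand, with 15 to 25 bases between them, was present in HLA-C and HLA-B with 20 bases between and in B2M with 21. This pair occurred in 0.447% of the 35116 promoter windows in the table. HLA-F held inverted CCAAT boxes with no match to the X2 core. The kappa-B pattern occurred in HLA-B, HLA-C, B2M and TAP1 and in 5.13% of all windows. The ISRE core occurred in HLA-F, B2M, TAP1, TAP2 and TAPBP and in 3.57% of all windows. In TAPBP, B2M and TAP1 the matches were pairs that overlapped each other by 4 bases, and in HLA-B the kappa-B match was read on both strands, 1 base apart. TGACG and ATTGG alone are common, in 24.6% and 34.6% of windows, and TATAA, present in B2M and TAP2, in 20.4%. These matches describe letters and not bound sites. Only exact matches were sought, so a window with no match, as HLA-B and HLA-C for the ISRE core, may still hold a variant of the element.

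**Figure D1:**
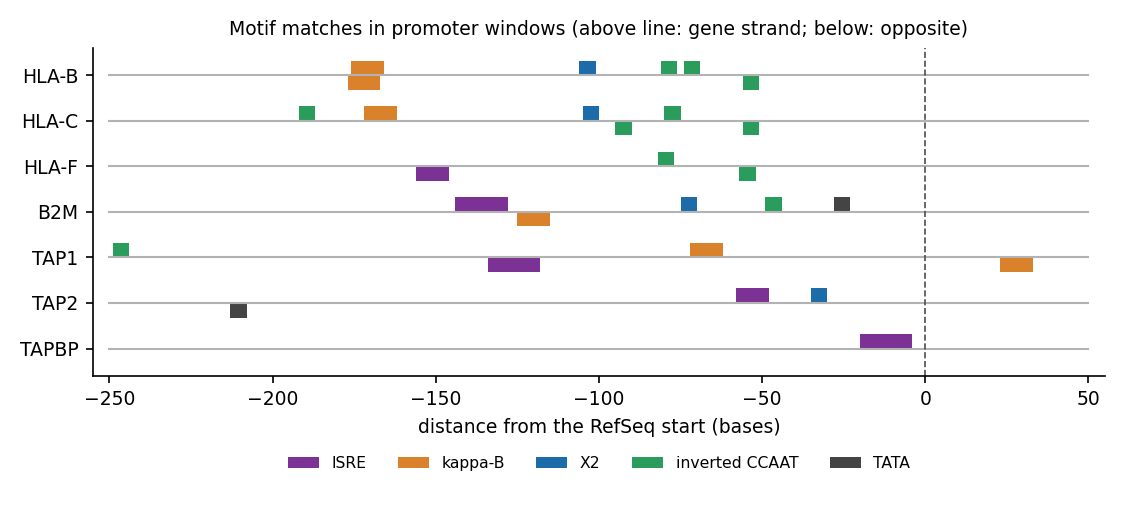
Positions of motif matches in the promoter windows of 7 class I presentation genes, in bases from the RefSeq start (dashed line). Bars above each line are matches on the strand of the gene and bars below are on the opposite strand. HLA-B and HLA-C each have a kappa-B, an X2 and an inverted CCAAT match in that order on the strand of the gene. HLA-C has a further inverted CCAAT match before its kappa-B match. HLA-F has no X2 or kappa-B match.

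HLA-C was the most abundant heavy chain gene described here. This classical heavy chain, which presents peptides to T cells and is also the main ligand of killer cell immunoglobulin-like receptors, had 2640 counts in replicate 1 and 5299 in replicate 2. These were 254 CPM in replicate 1 (95% exact Poisson interval 245 to 264) and 242 CPM in replicate 2 (236 to 249), a mean of 248 ± 8.47 CPM (SD, n = 2, as for all means below). The other classical heavy chain gene, HLA-B, had 1027 counts and 99.0 CPM in replicate 1 (93.0 to 105) and 2182 counts and 99.8 CPM in replicate 2 (95.7 to 104). The interval of each sample held the CPM of the other for HLA-B, but not for HLA-C.

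The non-classical heavy chain genes were lower, and they differed from each other. HLA-E, whose product shows leader peptides of other class I molecules to the NKG2A receptor of natural killer cells, had 505 counts and 48.7 CPM in replicate 1 (44.5 to 53.1) and 1120 counts and 51.2 CPM in replicate 2 (48.3 to 54.3). HLA-F, whose product binds natural killer cell receptors, had 86 counts and 8.29 CPM in replicate 1 (6.63 to 10.2) and 206 counts and 9.43 CPM in replicate 2 (8.18 to 10.8). The counting intervals of the samples overlapped for both genes.

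B2M, which encodes the light chain of every class I molecule, had 2295 counts and 221 CPM in replicate 1 (212 to 230). In replicate 2 it had 4398 counts and 201 CPM (195 to 207), so its intervals did not overlap. The transporter genes were less abundant. TAP1 had 317 counts and 30.6 CPM in replicate 1 (27.3 to 34.1) and 618 counts and 28.3 CPM in replicate 2 (26.1 to 30.6). TAP2, which encodes the other chain of the same heterodimer, had 156 counts and 15.04 CPM in replicate 1 (12.8 to 17.6) and 295 counts and 13.5 CPM in replicate 2 (12.002 to 15.1). Both transporter genes had overlapping intervals in the samples.

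TAPBP, which encodes tapasin, had 535 counts and 51.6 CPM in replicate 1 (47.3 to 56.1) and 1331 counts and 60.9 CPM in replicate 2 (57.7 to 64.3). Its intervals did not overlap, and replicate 2 was the higher. NLRC5 had 148 counts and 14.3 CPM in replicate 1 (12.1 to 16.8) and 310 counts and 14.2 CPM in replicate 2 (12.6 to 15.9). Its CPM was the closest of the 9 genes between the samples, with a coefficient of variation of 0.395%, against 11.7% for TAPBP, the widest. The NLRC5 difference is far smaller than its counting intervals, so this closeness does not show a steadier gene. The intervals are computed from a single count each, so they cover counting error only. No molecular identifiers are stated, so repeated reads of the same molecule may be among the counts.

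**Figure D2:**
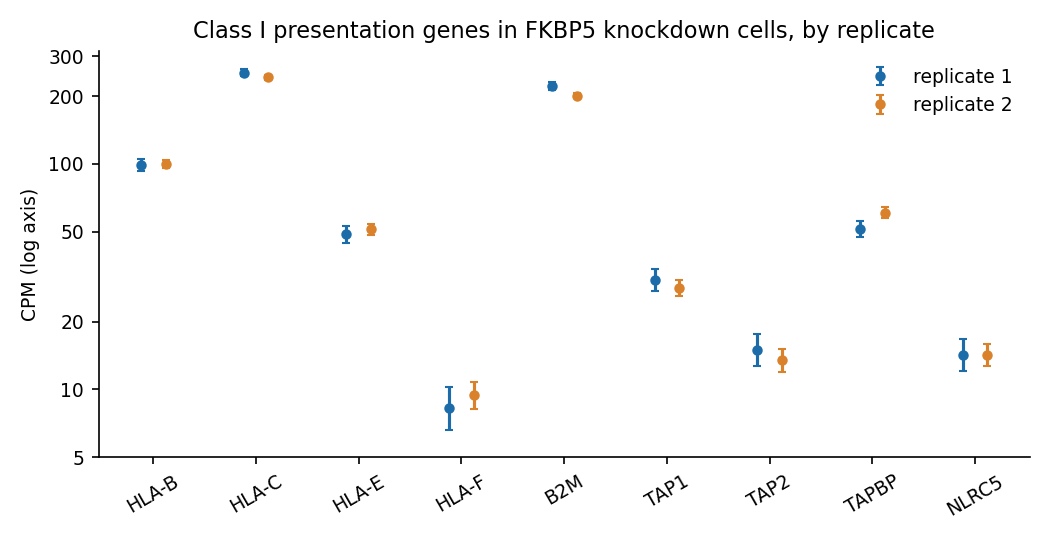
CPM (log axis) of the 9 class I presentation genes in replicate 1 (left point of each pair) and replicate 2 (right point) of the FKBP5 knockdown cells, with 95% exact Poisson intervals. HLA-C and B2M lie above 200 CPM and HLA-F lies lowest, and the intervals of the samples are apart for B2M and TAPBP.

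Between genes, levels were compared per length, as counts per kilobase of all exonic bases of the gene in GENCODE 29, scaled to the same total in both libraries (TPM). HLA-C led with 372 TPM in replicate 1 and 345 TPM in replicate 2, and 97.6% of the 15530 genes lay below its mean of 359 ± 19.1 TPM. B2M at 126 ± 10.8 TPM and HLA-B at 118 ± 1.55 TPM came next, and the ranges of these neighbours over the samples overlapped. HLA-E had 60.7 ± 1.04 TPM, TAPBP 40.2 ± 3.95 TPM and TAP1 22.2 ± 1.64 TPM, each apart from its neighbours. TAP2 at 8.08 ± 0.771 TPM and HLA-F at 7.37 ± 0.528 TPM overlapped. NLRC5 was lowest at 4.15 ± 0.0966 TPM, with 19.3% of genes below it. In the shares for HLA-C and NLRC5 any tested gene without a GENCODE 29 length was counted as not below. In all, 6 of 8 pairs of neighbours in this order did not overlap. The median of the 9 genes was 40.2 TPM, beside 17.2 TPM over all genes tested. In these bulk samples fewer cells that express a gene and less RNA per cell cannot be told apart.

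The length chosen for a gene moved these levels. All exonic bases include retained introns, so the 6079 bases of B2M compare with 1705 in its APPRIS principal transcript, the isoform annotated as the main protein-coding one. With principal transcripts, a length chosen after the values were seen, B2M had 294 ± 22.0 TPM and lay apart from HLA-B at 152 ± 0.319 TPM. HLA-C stayed highest at 383 ± 16.2 TPM and NLRC5 lowest at 4.94 ± 0.0601 TPM. TAPBP, at 70.5 ± 7.71 TPM, then ranked above HLA-E at 45.5 ± 1.29 TPM, and HLA-F reached 12.8 ± 1.06 TPM.

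**Figure D3:**
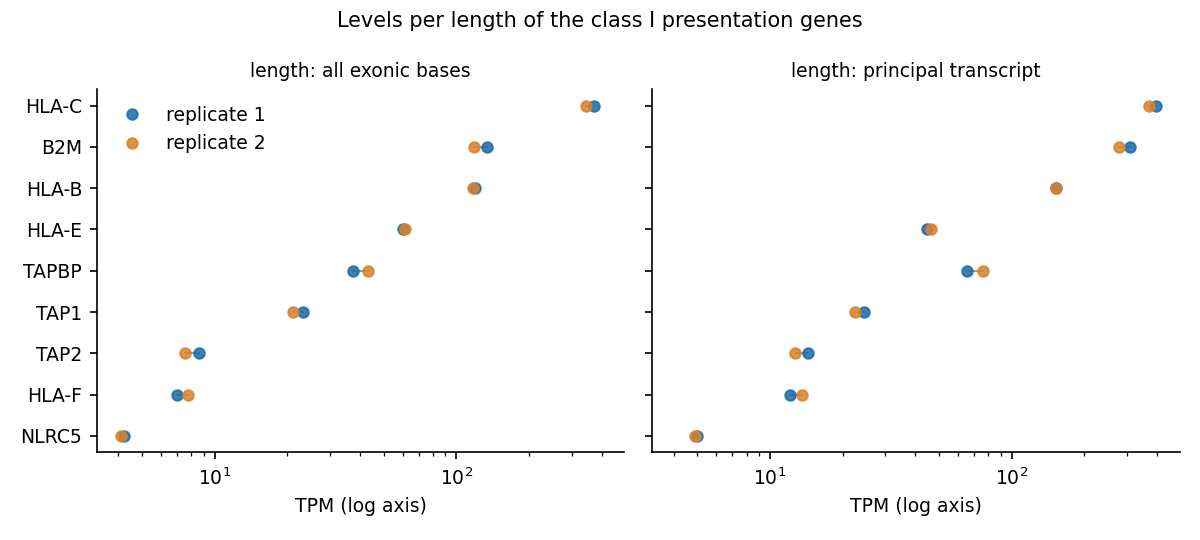
TPM (log axis) of the 9 genes in replicate 1 and replicate 2, with the length of a gene taken as all exonic bases (left panel) or as the APPRIS principal transcript (right panel), and a line joining the samples. HLA-C is highest and NLRC5 lowest in both panels, while B2M, TAPBP and HLA-F shift with the length.

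Of the summed TPM of the 4 heavy chain genes described here, HLA-C took 66.7% in replicate 1 and 65.0% in replicate 2. HLA-B took 21.3% in replicate 1 and 22.0% in replicate 2, HLA-E 10.7% and 11.6%, and HLA-F 1.25% and 1.46%. HLA-C was 3.04 ± 0.122 times HLA-B in TPM, and 2.52 ± 0.101 times with principal transcripts. The light chain gene was below the sum of these heavy chain genes in both samples. B2M over their sum was 0.239 in replicate 1 and 0.222 in replicate 2 in TPM over all exonic bases, and 0.512 and 0.476 with principal transcripts. TAP1 was above TAP2 in both samples, 2.702 times in replicate 1 and 2.79 times in replicate 2 in TPM, and 1.71 and 1.77 times with principal transcripts.

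Reads shared between similar genes bear on these ratios. Of the stretches of 50 bases in GENCODE 29 transcripts, 97.3% in HLA-B, 94.6% in HLA-C, 95.7% in HLA-E and 99.02% in HLA-F occurred in no other gene's transcript on the same strand. All stretches of B2M and NLRC5 were their own. In TAP2 68.7% were, and an annotated protein-coding gene, ENSG00000250264, which overlaps 32.3% of its exonic bases on the same strand, had 0 counts in both samples. Reads were not recounted. With the whole count of each gene divided by the number of its own stretches, TAP2 had 11.7 ± 1.12 TPM and HLA-F 7.02 ± 0.502 TPM. This assumes that no shared read was counted. Stretches are taken over all transcripts of a gene, so their number can exceed its exonic bases, as in HLA-F with 4563 against 4342. B2M, whose stretches were all its own, also fell, to 119 ± 10.3 TPM. These levels therefore do not isolate the effect of shared reads. No label or header says whether shared reads were counted. Exons of other genes on the opposite strand covered 28.5% of the exonic bases of HLA-F, 17.8% of HLA-B and 9.49% of TAP1. The library kit keeps strand, but no source used here gives the strand setting of the counting. HLA heavy chain genes are highly polymorphic, and how well reads from the alleles of this line fitted the reference was not tested.

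On chromosome 6 (GRCh38, GENCODE 29) HLA-F starts at 29722775 and HLA-E at 30489467, both on the plus strand. HLA-C runs from 31268749 to 31272130 on the minus strand. HLA-B is annotated from 31269491 to 31357188 on the same strand, and the exons of HLA-B and HLA-C share 35 bases. TAP2 (32821833 to 32838780) and TAP1 (32845209 to 32853978), both on the minus strand, lie beside the immunoproteasome genes. PSMB8 lies between them (32840717 to 32844703, minus strand), and PSMB9 runs from 32844136 to 32859585 on the plus strand, across TAP1. TAPBP lies further on, from 33299694 to 33314387 on the minus strand. B2M runs from 44711487 to 44718877 on chromosome 15 and NLRC5 from 56989485 to 57083531 on chromosome 16, both on the plus strand.

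These neighbours differed widely in level. PSMB8, an interferon-inducible catalytic subunit that replaces PSMB5, had 4 counts in replicate 1 (0.386 CPM, 0.105 to 0.987) and 3 in replicate 2 (0.137 CPM, 0.0283 to 0.401). PSMB9, which replaces PSMB6, had 67 counts and 6.46 CPM in replicate 1 (5.004 to 8.20) and 112 counts and 5.12 CPM in replicate 2 (4.22 to 6.17). Per length PSMB9 had 6.83 ± 1.24 TPM, below TAP1 at 22.2 ± 1.64 TPM. The constitutive subunits were far higher, with PSMB5 at 296 ± 47.2 TPM, PSMB6 at 388 ± 42.9 TPM and PSMB7 at 297 ± 27.2 TPM. PSMB10, which replaces PSMB7 and was named after its values were seen, had 2.63 ± 0.759 TPM. Exons of other genes on the opposite strand cover 20.6% of the exonic bases of PSMB8, and the part of this overlap in its low count was not tested.

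Between the libraries, B2M and TAPBP passed a 2-sided exact binomial test of the counts, in opposite directions. This test compares the libraries and not conditions, has no replicate check, and holds counting error only. It called 8.97% of the 15530 genes tested at an adjusted p under 0.05 (Benjamini-Hochberg over all genes tested). Of these 1393 genes 708 were higher in replicate 1 and 685 lower, and column totals in place of the deposited library sizes gave 902 higher and 581 lower. Of the 9 class I presentation genes 2 passed. B2M was 1.10 times as high in replicate 1 as in replicate 2 (95% exact interval 1.04 to 1.16, log2 ratio of CPM + 1 of 0.14, exact binomial adjusted p = 0.0062). TAPBP was 0.847 times as high (0.764 to 0.937, log2 ratio -0.24, exact binomial adjusted p = 0.018). No gene of the 9 reached a 1.5-fold difference in CPM + 1, which 1.72% of all genes tested did.

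The other 7 genes did not pass. Their intervals give the ratios that the counts allow where counting error is the only error, and are not adjusted for the number of genes. HLA-C had a ratio of replicate 1 over replicate 2 of 1.05 (1.001 to 1.10, exact binomial p = 0.044, adjusted p = 0.213), so its unadjusted interval left out 1. HLA-B had a ratio of 0.991 (0.920 to 1.07). HLA-E was at 0.9497 (0.853 to 1.06) and HLA-F at 0.879 (0.676 to 1.14). TAP1 was at 1.08 (0.941 to 1.24), TAP2 at 1.11 (0.911 to 1.36) and NLRC5 at 1.01 (0.821 to 1.23). The interval was widest, relative to its ratio, for HLA-F, the gene with the fewest counts. The median log2 ratio of the 9 genes was 0.01, beside -0.01 over all genes tested.

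**Figure D4:**
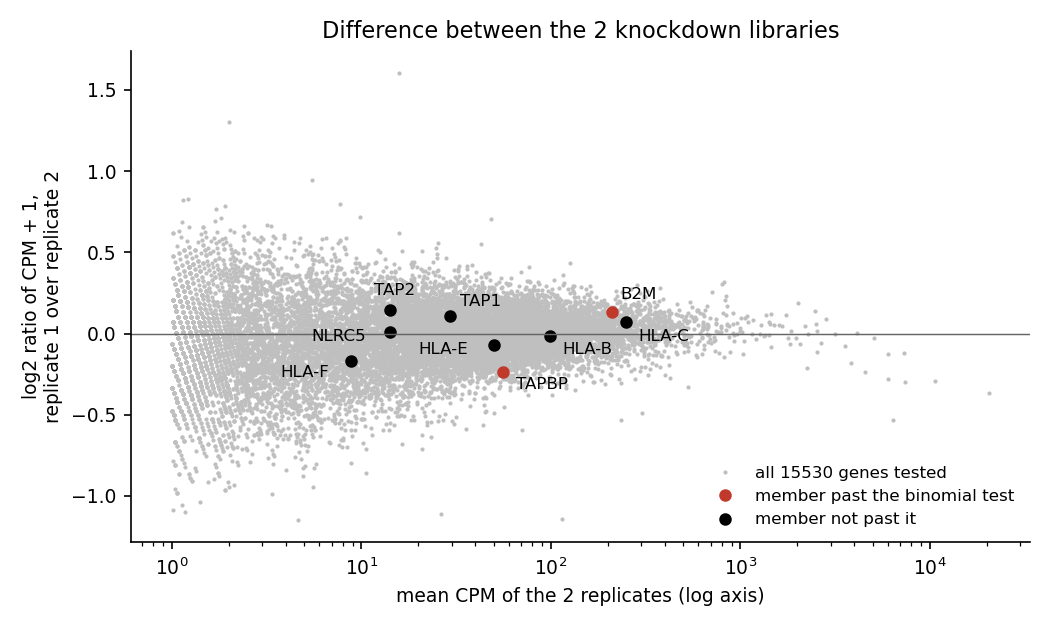
Log2 ratio of CPM + 1 of replicate 1 over replicate 2 against mean CPM (log axis) for all 15530 genes tested (grey) and the 9 class I presentation genes (red where the binomial test was passed, black where not). B2M lies above 0 at 0.14 and TAPBP below at -0.24, both within the cloud of grey points.

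The genes that supply, trim and load peptides were mostly well expressed. Of 24 in this list 23 had a mean of 1 CPM or more, PSMB8 being the exception, and the median of all 24 was 64.2 TPM. HSPA5, the chaperone BiP, had 774 ± 103 TPM. CALR, the lectin chaperone calreticulin of the loading complex, had 890 ± 92.2 TPM, and the glucosidase subunit gene GANAB 289.8 ± 12.05 TPM. By the binomial test 8 of the 23 tested were higher in replicate 1 and 0 lower, against 4.56% of all genes higher and 4.41% lower. They were PSMB5, PSMB6, PSMB7, CALR, HSPA5, the calnexin gene CANX, the thiol oxidoreductase gene PDIA3 and the translocon gene SEC61A1. Their log2 ratios of replicate 1 over replicate 2 ran from 0.12 for PDIA3 to 0.29 for PSMB5. All lay at 100 CPM or more, where 26.5% of all genes were called in either direction. Of the 16 genes for peptide supply, loading and class I transcription at that level, these 8 were called, all higher in replicate 1. Whether their level accounts for the calls was not tested. B2M was higher in replicate 1 like these 8 genes, and TAPBP, whose product works with calreticulin and PDIA3, was lower.

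Factors that act on class I promoters were all present at a mean of 1 CPM or more, with a median of 33.5 TPM over 25 genes. The acetyltransferase genes EP300 and CREBBP had 59.3 ± 1.34 and 44.8 ± 2.75 TPM, and USF2, an E-box factor, 109 ± 6.49 TPM. Of the 25 genes 2 passed the test, close to the 8.97% called over all genes tested. They were NFYB and NFYC, subunits of the factor that binds the CCAAT box, both higher in replicate 1. NFYB had 33.7 CPM in replicate 1 and 27.0 CPM in replicate 2 (exact binomial adjusted p = 0.019). NFYC had 73.2 CPM in replicate 1 and 64.0 CPM in replicate 2 (exact binomial adjusted p = 0.037), and did not pass when genes of low level were tested too (adjusted p = 0.096). NFYA, the remaining subunit of that factor, was named after its values were seen and did not pass, with 23.9 CPM in replicate 1 and 24.5 CPM in replicate 2 (ratio 0.975, 0.835 to 1.13). The parts of the X box complex, named after their values were seen, were RFX5 at 99.6 ± 1.001 TPM, RFXANK at 82.6 ± 5.58 TPM and RFXAP at 17.6 ± 2.23 TPM. CIITA, the class II counterpart of NLRC5 and also named after its values were seen, was lower than NLRC5, at 0.252 ± 0.0777 TPM.

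In the list of the interferon receptors and their signalling genes, 11 of 13 genes had a mean of 1 CPM or more. IFNG, the cytokine gene, had no count in either sample (upper interval end 0.356 CPM in replicate 1 and 0.169 CPM in replicate 2). The receptor gene IFNAR2, named after its values were seen, was the other below that mean, at 0.645 CPM. IFNAR2 had 2 counts (0.193 CPM) in replicate 1 and 24 (1.10 CPM) in replicate 2, and was not tested. The kinase genes TYK2 and JAK1 had 125 ± 0.518 and 49.3 ± 0.0768 TPM, and the phosphatase gene PTPN1 84.1 ± 7.85 TPM. Of the 11 genes tested 1 passed, close to the 8.97% over all genes. It was IFNGR1, a chain of the interferon gamma receptor, with 41.4 CPM in replicate 1 and 33.95 CPM in replicate 2 (exact binomial adjusted p = 0.019). PTPN1 passed only with column totals (adjusted p = 0.035, against 0.068).

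Other MHC class I like genes had 10 of 18 at a mean of 1 CPM or more. Of these 10 genes 0 passed the binomial test, beside 8.97% of all genes tested, and 1 of them, MICA, had an unadjusted p under 0.05 (exact binomial p = 0.014). With 10 genes no difference from that share can be read. FCGRT, the heavy chain of the neonatal Fc receptor, which pairs with beta-2-microglobulin, had 51.5 ± 0.809 TPM. The NKG2D ligand genes ULBP3 and MICB had 95.6 ± 2.91 and 34.8 ± 0.575 TPM. Class II genes were low, with a median of 3.71 TPM over 14 genes and 12 of them at a mean of 1 CPM or more. HLA-DRB1 had 30.6 ± 2.30 TPM, HLA-DOA 18.9 ± 0.257 TPM and HLA-DQB1 8.18 ± 0.864 TPM. Of the 12 class II genes tested 1 passed, likewise close to that share. It was HLA-DMB, a peptide exchange factor, lower in replicate 1, at 2.22 CPM against 4.62 CPM in replicate 2 (exact binomial adjusted p = 0.017).

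**Figure D5:**
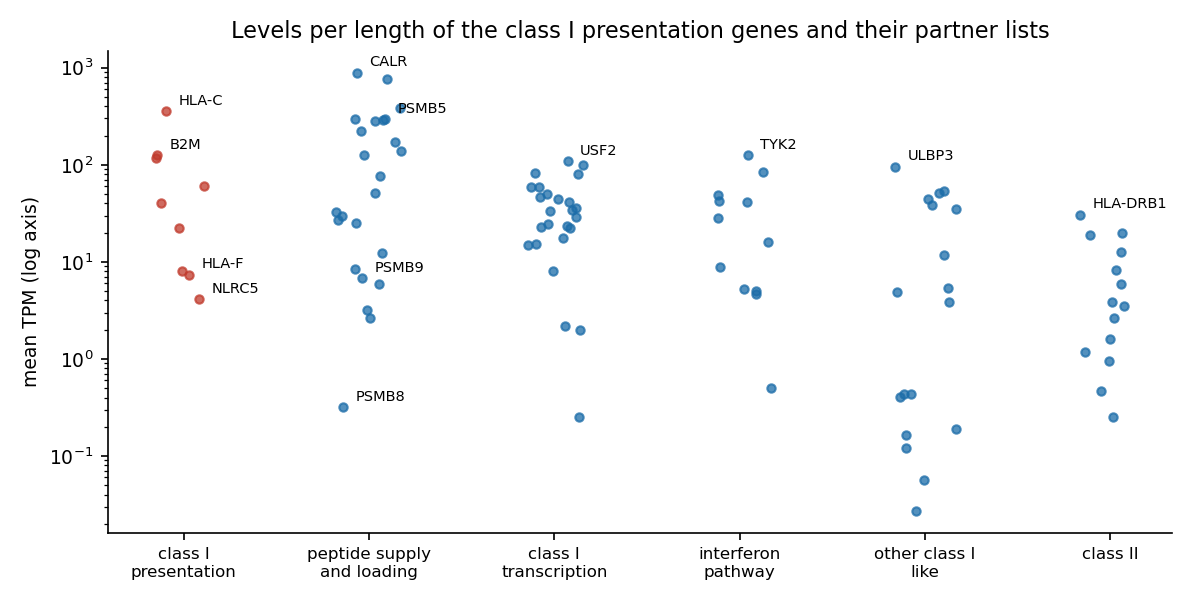
Mean TPM over the samples (log axis, length as all exonic bases) of the 9 class I presentation genes (red) and of the genes in 5 partner lists (blue), 1 point per gene. HLA-C lies among the highest genes shown, PSMB8 lies at 0.318 TPM, and IFNG, with no count, is not drawn.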

How the data were processed

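RNA-seq of 2 FKBP5 knockdown samples was analysed. Per the submitters' processing notes, reads were aligned with STAR 2.7.7a to GRCh38 and edgeR was used. The authors deposited whole-number counts per Ensembl gene with no normalization, and CPM that equal those counts times 1 constant per library. Divided by that constant, 100% of CPM values came out whole to within 1e-06, and the library sizes behind them were 3.78% and 2.68% above the column totals of replicates 1 and 2. No source used here gives how reads were counted (the program, the strand, the annotation, or reads that fitted more than 1 gene).

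The column totals were 9997706 counts for replicate 1 and 21284648 for replicate 2. The level of 3 counts was 0.289 CPM and 0.137 CPM. Symbols were found for 99.5% of the IDs, and 96.4% were in GENCODE 29, which gave lengths and coordinates. Genes whose mean reached 1 CPM were compared between the libraries by a 2-sided exact binomial test against the share that the deposited library sizes give. The test was tried on simulated Poisson counts, which hold counting error only. That trial does not check its calls where libraries vary more than this. Log2 ratios have 1 CPM added and are replicate 1 over replicate 2, so low genes are understated. Ratio intervals are exact binomial (Clopper-Pearson) and level intervals exact Poisson, both at 95%. Python 3.11.15 with scipy 1.17.1, Biopython 1.88 (global alignment) and edgeR 4.0.16 in R 4.3.3 (TMM, as an alternative) were used.

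The members and lists were chosen with earlier results of these data known. Named genes were the 9 members, FKBP5, PSMB8 and PSMB9, the 3 genes of each list with the highest mean CPM and genes past the test, and cell type markers are named as examples. No gene was ranked by likeness of pattern, since 2 samples of 1 group give none.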

Additional observations from a re-analysis of the deposited data

How the results depend on the processing

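The same number of the 9 genes, 2, passed the binomial test with column totals, with TMM factors and with no filter on low values. B2M and TAPBP were these in every case, with adjusted p between 0.0015 and 0.016 for B2M and between 0.018 and 0.047 for TAPBP. With a call at 1.5-fold in CPM + 1 in place of the test, 0 of the 9 genes and 0 of the 49 partner genes for peptide supply, loading and transcription were called, where the test called 10 partner genes. With no filter on low values the test called 9 of them, NFYC being lost. Column totals turned the log2 ratio of HLA-B, which passed no test, to 0.0029. Neighbours in the per-length order that did not overlap were 6 of 8 with all exonic bases, 8 with the longest transcript, 7 with whole counts divided by the number of unique stretches and 7 with principal transcripts, the last chosen after seeing the data. With the longest transcript B2M had 242 TPM, HLA-B 177 TPM and HLA-F 14.9 TPM, and HLA-F then ranked above TAP2 at 6.90 TPM. Leaving out a sample leaves no comparison between libraries, and with 2 samples the level that remains lies at a fixed distance from the mean, so this alternative says nothing about stability. No paired analysis was possible because the samples form 1 group. Depth limits HLA-F most among the 9 genes, with 86 and 206 counts.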
